A study of Mus musculus with 35 samples.

Results

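Anxa4, Clcn5, Efhd1, Pacsin2 and Eps8 were examined across the kidneys of 3 crosses of mice that lack folliculin (Flcn). They are 5 of the 31053 genes in the deposited counts, and they were chosen by their counts, which were higher in the Flcn/Tfe3 double knockout (DKO) than in its controls. The change in that cross is therefore given as a description, without a test. The change of the 5 genes was tested only in the Flcn cross, the Flcn/Tfeb cross and the difference between those crosses.

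Messenger RNA of whole kidneys was measured by 3' end sequencing in 35 libraries of C57BL/6 pups at postnatal day 2. The Flcn KO (Flcn flox/flox; Ksp-cre+, n = 5) was compared with 5 controls of its cross, the Flcn/Tfeb DKO (both Flcn and Tfeb flox/flox, with Ksp-cre+, n = 4) with 3 controls, and the Flcn/Tfe3 DKO (Flcn flox/flox; Ksp-cre+; Tfe3-/-, n = 10) with 8 controls. Controls were Flcn flox/flox mice according to the study, while the labels name them only as the control of each cross. Ksp-cre is driven by the promoter of Cdh16 and acts in collecting ducts, distal tubules and the thick ascending limb, so RNA of the other kidney cells, in which Flcn and Tfeb are intact, was counted with that of the deleted cells, whereas the Tfe3 null allele is carried by every cell. Set A holds the Flcn cross with the Flcn/Tfeb cross, and the libraries of the Flcn/Tfe3 cross come from 2 deposited tables, here set B (6 DKO and 3 controls) and set C (4 DKO and 5 controls).

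Folliculin lets the kinase mTORC1 phosphorylate the transcription factors TFEB and TFE3, which keeps them in the cytoplasm, and without it both factors enter the nucleus and switch on genes of lysosomes and energy metabolism. The 5 genes have different roles. Anxa4 encodes an annexin, a protein that binds phospholipid membranes when calcium is present. Clcn5 encodes the endosomal chloride and proton exchanger ClC-5, which acidifies endosomes in the proximal tubule and in intercalated cells and is mutated in Dent disease. Efhd1 encodes a calcium-binding EF-hand protein of mitochondria. Pacsin2 encodes an F-BAR protein that bends membranes and binds dynamin during endocytosis. Eps8 encodes a substrate of the epidermal growth factor receptor that caps and bundles actin filaments, among other places in microvilli.

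All 5 genes passed the filter on low counts in every fit. The depth was 1652649 to 4239356 counts on genes per library, and over all libraries Anxa4 had 22 to 245 counts, Clcn5 129 to 853, Efhd1 11 to 227, Pacsin2 20 to 216 and Eps8 62 to 395. The share of mitochondrial transcripts was 4.88 to 11.1% in the Flcn controls, 7.33 to 11.1% in the Flcn KO, 4.47 to 10.7% in the Flcn/Tfeb controls and 10.4 to 11.9% in the Flcn/Tfeb DKO, and was lower in the Flcn/Tfe3 cross (2.10 to 7.80% in controls and 1.79 to 4.27% in the DKO). Flcn itself passed the test in no cross (log2 fold changes of 0.09 with Flcn KO, 0.11 with Flcn/Tfeb DKO, or 0.34 without control replicate 3, and 0.20 with Flcn/Tfe3 DKO, edgeR adjusted p 0.93, 0.93 and 0.87), and Tfe3 did not pass it in its own cross (-0.09, edgeR adjusted p 0.94). Tfeb, in counts scaled to the library size (CPM), was at 7.01 to 19.5 in the Flcn/Tfeb controls and at 6.48 to 7.94 CPM in the DKO (log2 fold change -0.74, edgeR adjusted p 0.80), but the log2 fold change was -0.12 without control replicate 3. Reads at the 3' end do not show a deletion further upstream, so these levels do not check the genotypes. In bulk RNA, fewer cells of a type and less RNA per cell cannot be told apart.

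**Figure D1:**
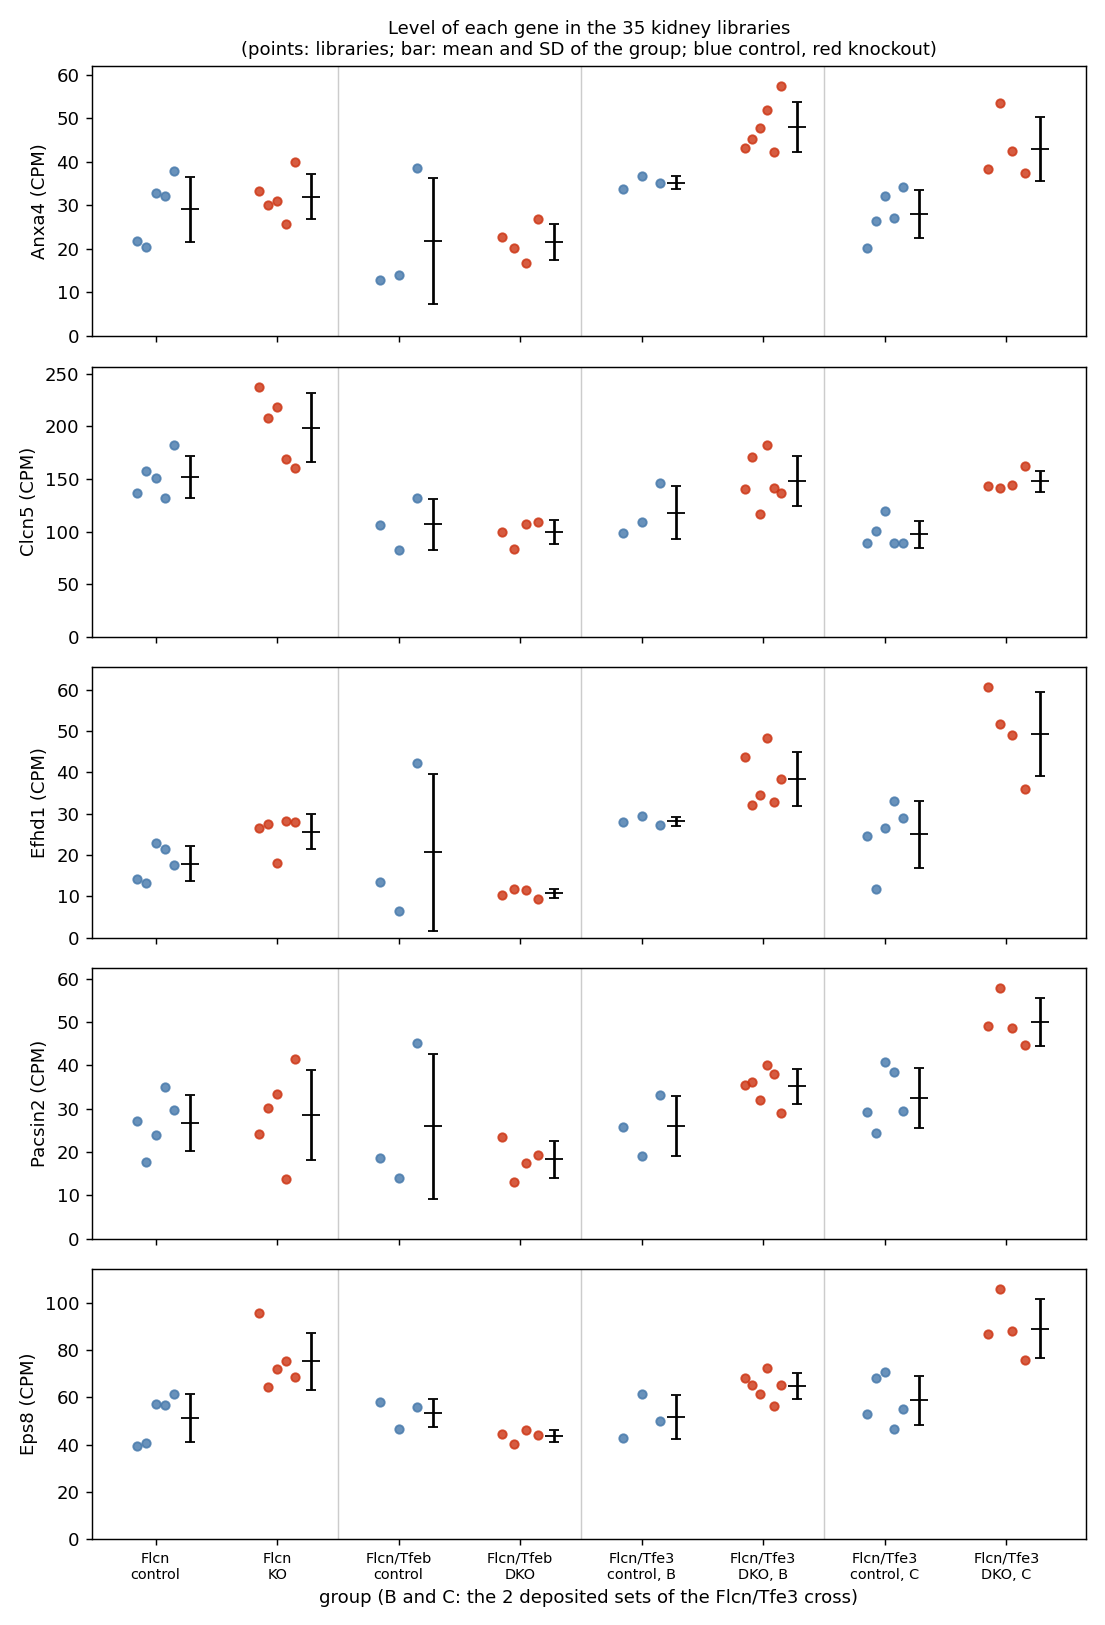
Level of each of the 5 genes (CPM, counts scaled to the library size after TMM) in every library, by group, with the mean and SD of the group beside the points. The 10 Flcn/Tfe3 DKO libraries of Anxa4 all sit above the 8 controls, Flcn/Tfeb control 3 sits far above the other Flcn/Tfeb controls for Anxa4, Efhd1 and Pacsin2, and the 5 Flcn KO libraries of Eps8 sit above their 5 controls.

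In the Flcn/Tfe3 cross, which chose the genes, 48 of 12456 genes were called at an adjusted p under 0.05 (0.385%), of which 43 were higher in the DKO. The 5 genes stood at positions 33 to 48 of the 48 in the order of their p-values, a description of the choice and not a test. With Xist, the mitochondrial share or the replicate number in the fit, and in set B alone, 0 of the 5 were past the threshold. In set C alone 4 were, with 569 genes called there. Over the alternatives the log2 fold changes of the 5 genes ran from 0.33 (Clcn5, set B) to 0.93 (Efhd1, set C), which the choice of the genes largely fixes. Pacsin2 was the last gene inside the threshold (log2 fold change 0.54 ± 0.12, SE), Clcn5 (0.48) and Eps8 (0.48) were 3 and 5 places before it, and the genes just outside were Syn2 (1.06), Aldh1l1 (0.61) and Krt7 (0.47).

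Anxa4 (ENSMUSG00000029994, chr6:86736840-86793584, minus strand, mm10) was at 33.7, 36.6 and 35.2 CPM in the 3 Flcn/Tfe3 controls of set B, and its 6 DKO libraries were at 42.2 to 57.4 CPM (median 46.5). In set C the 5 controls were at 20.1, 26.4, 32.1, 27.0 and 34.1 CPM and the 4 DKO libraries at 38.3, 53.5, 42.6 and 37.4 CPM. Every DKO library was thus above every control in both sets. Of the 5 genes Anxa4 alone was separated in this way over both sets, and 0.112% of the tested genes were, from which nothing is read because this cross chose the genes. Its log2 fold change over both sets was 0.54 ± 0.11 (SE), that of set B alone 0.46 and that of set C alone 0.60.

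Clcn5 (ENSMUSG00000004317, chrX:7153810-7319358, minus strand) was at 98.4, 109 and 146 CPM in the controls of set B and at 116 to 182 CPM (median 141) in the DKO, so the groups overlapped there. In set C the controls, at 88.9 to 119 CPM, lay below all 4 DKO libraries, at 143, 141, 144 and 163 CPM. Over both sets its log2 fold change was 0.48 ± 0.11, and it was 0.33 within set B and 0.58 within set C. Clcn5 is on the X chromosome. Xist exceeded the summed Y-linked genes Ddx3y, Eif2s3y, Kdm5d and Uty in 5 of 8 controls and 3 of 10 DKO libraries, and with Xist as a covariate the log2 fold change of Clcn5 was 0.44.

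Of the 4 members with promoter windows, only Clcn5 had 1 of the motifs searched, the E-box and M-box letters known for TFEB, TFE3 and their relatives, in a window examined. RefSeq promoters (GRCm38.p6, 250 bases before to 50 after a transcript start) were available for Anxa4, Clcn5, Efhd1 and Pacsin2, with 8 windows in all. The palindromic E-box CACGTG was in none of the 8, and in 7.15% of 32851 windows of the genome. The 8-base letters TCACGTGA, which contain it, were in none of the 8 and in 0.974% of all windows. TCATGTGA, searched on both strands, was in 1 of the 8 and in 0.986% of all windows, and its first 7 letters, TCATGTG, were in the same window and in 3.77% of all windows. That window is an internal start of Clcn5, chrX:7188665-7188964 on the minus strand, shown 5' to 3' with the 8 letters in capitals, which begin 38 bases before the start.
Clcn5 internal promoter: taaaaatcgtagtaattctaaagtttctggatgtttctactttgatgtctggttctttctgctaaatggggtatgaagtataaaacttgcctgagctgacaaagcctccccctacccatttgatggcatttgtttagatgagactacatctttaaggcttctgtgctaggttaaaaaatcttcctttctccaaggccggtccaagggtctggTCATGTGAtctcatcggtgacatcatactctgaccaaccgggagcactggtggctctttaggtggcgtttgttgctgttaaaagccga
A match of letters is a description and not a bound site, and 3' end counts do not tell which start a transcript of Clcn5 came from. The windows at the outermost starts were rich in CpG, with 24 CpG dinucleotides for Efhd1, 20 for Anxa4, 27 for Pacsin2 and 19 for Clcn5, beside a median of 7.0 over all windows, while the internal windows of Anxa4, Pacsin2 and Clcn5 held 3 to 6.

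Efhd1 (ENSMUSG00000026255, chr1:87264363-87310839, plus strand) had the largest change of the 5 genes in the Flcn/Tfe3 cross. Its set B controls were at 27.95, 29.3 and 27.2 CPM and its 6 DKO libraries at 32.0 to 48.4 CPM (median 36.5). In set C the controls were at 24.5, 11.8, 26.4, 33.1 and 29.0 CPM and the DKO libraries at 60.5, 51.7, 48.9 and 35.9 CPM. Each set was separated, and the overlap over both sets came from the highest control of set C and the lowest DKO libraries of set B. Together the sets gave a log2 fold change of 0.71 ± 0.15, of which set B alone gave 0.45 and set C alone 0.93.

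Pacsin2 (ENSMUSG00000016664, chr15:83375607-83464606, minus strand) was at 25.8, 19.2 and 33.1 CPM in the controls of set B and at 29.1 to 40.045 CPM (median 35.8) in the DKO, which overlapped. In set C it was at 24.3 to 40.9 CPM in the controls and at 49.0, 57.8, 48.6 and 44.7 CPM in the DKO, with no overlap. Set B alone gave a log2 fold change of 0.44 and set C alone 0.59.

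Eps8 (ENSMUSG00000015766, chr6:137477245-137654876, minus strand) was at 43.0, 61.6 and 50.1 CPM in the controls of set B and at 56.4 to 72.2 CPM (median 65.2) in the DKO. In set C the controls were at 52.9, 68.1, 70.8, 46.8 and 54.9 CPM and all 4 DKO libraries were higher, at 86.7, 106, 87.9 and 75.9 CPM. Eps8 had a log2 fold change of 0.48 ± 0.11 over both sets, and of 0.34 and 0.59 within set B and set C. For each of the 5 genes the change was thus larger in set C than in set B, a difference that was not tested because both sets belong to the cross that chose the genes. The sets also differed in the summed level of 6 red blood cell genes. It was 2072 to 7565 CPM in the controls and 1394 to 1838 CPM in the DKO of set C, against 3590 to 5879 and 3217 to 6172 CPM in set B. In set C every control had fewer counts on genes (1719367 to 2909353) than every DKO library (3159884 to 3555791), while in set B these ranges overlapped. The mitochondrial share in set C was 3.01 to 7.80% in the controls and 2.72 to 4.27% in the DKO. The part of these differences in the result was not tested.

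**Figure D2:**
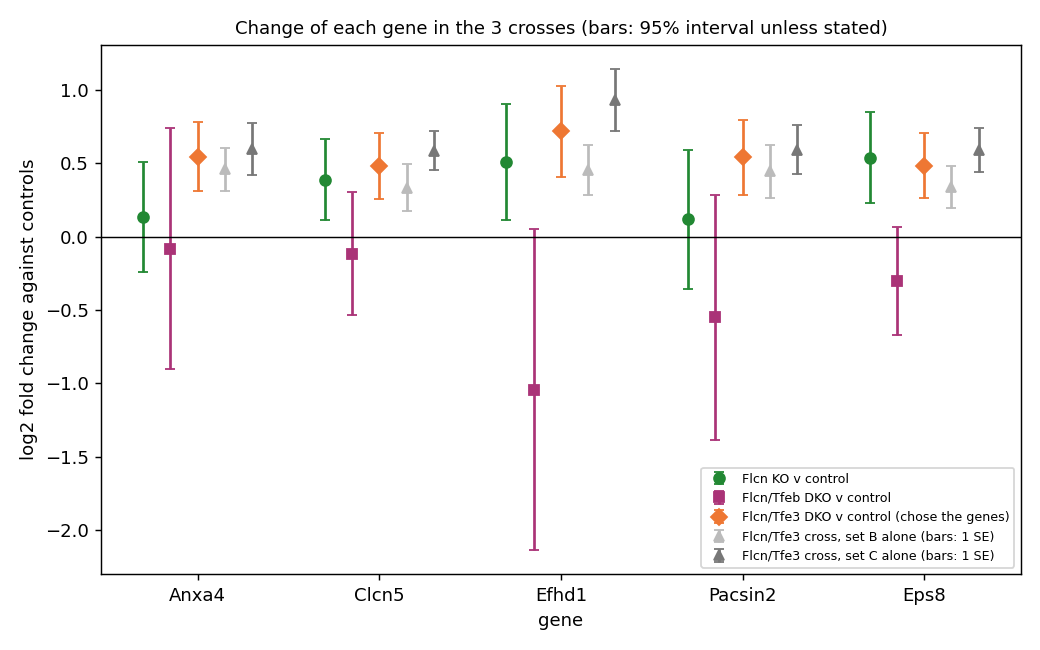
Log2 fold change of each gene against the controls of its cross, with 95% intervals for the 3 crosses and bars of 1 SE for set B and set C alone. The Flcn/Tfe3 values, which chose the genes, lie between 0.48 and 0.71, the Flcn values between 0.12 and 0.54, and the Flcn/Tfeb values between -1.04 and -0.08.

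The values of the Flcn cross were not used in the rule, although earlier results of these data were known when the genes were chosen, so its tests are not independent of that choice. None of the 5 passed the edgeR quasi-likelihood test in that cross after Benjamini-Hochberg adjustment over 11932 genes, of which 62 were called (0.52%). At an unadjusted p under 0.05, 3 of the 5 genes (Clcn5, Efhd1 and Eps8) passed, beside 1082 of all tested genes (9.07%). The log2 fold changes of all 5 were above 0 (median 0.39), as were those of 48.5% of all tested genes.

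Eps8 stood apart most clearly. Its 5 Flcn controls were at 39.5, 40.9, 57.3, 56.9 and 61.3 CPM and its 5 Flcn KO libraries at 95.5, 64.3, 72.1, 75.3 and 68.6 CPM, so that every KO library was above every control, as in 1.69% of the tested genes. Eps8 had a log2 fold change of 0.54 ± 0.15 (SE), with an edgeR p of 0.0018 and an adjusted p of 0.16. The exact permutation test of log2 CPM over the 10 libraries, two-sided, gave p = 0.00794 for Eps8, the smallest that 5 against 5 libraries can give. Altogether 10 such tests were made, 1 for each gene in the Flcn and Flcn/Tfeb crosses. With the mitochondrial share as a covariate the log2 fold change was 0.58 and the edgeR adjusted p 0.025.

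Clcn5 was at 137, 158, 151, 131 and 182 CPM in the Flcn controls and at 238, 208, 218, 169 and 160 CPM in the Flcn KO. The 3 highest libraries were KO and the 2 other KO libraries lay within the range of the controls. Clcn5 had a log2 fold change of 0.39 ± 0.13, with an edgeR adjusted p of 0.34 and an exact permutation p of 0.0397 (two-sided), and 5 of 5 KO libraries were above the mean of the controls. In each group 1 of 5 libraries had Xist above the Y-linked genes, and with Xist as a covariate the log2 fold change was again 0.39.

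Efhd1 was at 14.3, 13.2, 22.8, 21.5 and 17.6 CPM in the Flcn controls and at 26.5, 27.5, 18.0, 28.2 and 27.9 CPM in the Flcn KO. KO replicate 3, at 18.0 CPM, lay among the controls and the other 4 KO libraries lay above them all. Efhd1 had a log2 fold change of 0.51 ± 0.19, with an edgeR adjusted p of 0.39 and an exact permutation p of 0.0317 (two-sided), and 5 of 5 KO libraries were above the mean of the controls.

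Anxa4 was at 21.9, 20.5, 32.9, 32.2 and 37.9 CPM in the Flcn controls and at 33.3, 30.1, 30.9, 25.7 and 39.9 CPM in the Flcn KO, with ranges that overlapped almost wholly. Its log2 fold change was 0.13 with a 95% interval of -0.24 to 0.51, an edgeR adjusted p of 0.85 and an exact permutation p of 0.452. Pacsin2 was at 27.1, 17.7, 23.9, 34.9 and 29.6 CPM in the controls and at 24.1, 30.1, 33.5, 13.8 and 41.4 CPM in the KO. Its log2 fold change was 0.12 with an interval of -0.36 to 0.59, an edgeR adjusted p of 0.91 and an exact permutation p of 0.897, and it fell to -0.05 without KO replicate 5.

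In the Flcn/Tfeb cross none of the 5 genes passed the test. The log2 fold changes of the 5 were below 0 (median -0.30), beside 47.9% of all tested genes above 0, but those of 4 of the 5 were above 0 without control replicate 3, and 0 of 12469 tested genes were called by edgeR in this cross (0%). At an unadjusted p under 0.05 there were 632 genes (5.07%), none of them among the 5. DESeq2 also called 0 genes, and 0 of the 5.

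Eps8 was at 57.8, 46.7 and 55.8 CPM in the Flcn/Tfeb controls and at 44.5, 40.2, 46.1 and 44.1 CPM in the DKO. Every DKO library was below every control, as in 2.75% of the tested genes. Eps8 thus had a log2 fold change of -0.30 ± 0.17 (SE, 95% interval -0.67 to 0.07), with an edgeR adjusted p of 0.80 and an exact permutation p of 0.0286 (two-sided), the smallest that 4 against 3 libraries can give.

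For the 4 other genes the log2 fold change went from below 0 to above 0 without 1 control library. Efhd1 was at 13.4, 6.42 and 42.3 CPM in the controls and at 10.3, 11.7, 11.4 and 9.44 CPM in the Flcn/Tfeb DKO. Its log2 fold change was -1.04 ± 0.50 (edgeR adjusted p 0.80), and 0.10 without control replicate 3. Pacsin2 was at 18.7, 14.01 and 45.1 CPM in the controls and at 23.4, 12.97, 17.5 and 19.3 CPM in the DKO. Its log2 fold change was -0.55 ± 0.38 (edgeR adjusted p 0.80), and 0.18 without that library. In control replicate 3 both genes were within the range of the Flcn/Tfe3 DKO, and in the other 6 libraries of the cross they were at most at 13.4 and 23.4 CPM.

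Anxa4 was at 12.9, 14.01 and 38.5 CPM in the Flcn/Tfeb controls and at 22.6, 20.1, 16.8 and 26.8 CPM in the DKO, so each DKO library lay between the 2 low controls and the high one. The log2 fold change was -0.08 ± 0.37 (edgeR adjusted p 0.96), the difference of the mean log2 CPM was 0.15, and without control replicate 3 the log2 fold change was 0.68 (edgeR adjusted p 0.93). Clcn5 was at 106, 82.9 and 132 CPM in the controls and at 99.3, 83.6, 107 and 109 CPM in the DKO. Clcn5 had a log2 fold change of -0.12 with an interval of -0.54 to 0.30 (edgeR adjusted p 0.88), and 0.08 without that library. Control replicate 3 had a mitochondrial share of 4.47%, against 9.16 and 10.7% in the other controls, and with that share as a covariate the 4 log2 fold changes were 0.98 for Anxa4, 0.22 for Clcn5, 0.67 for Efhd1 and 0.60 for Pacsin2, with edgeR adjusted p of 0.56 to 0.81. Its 9 principal cell markers summed to 916 CPM, against 481 to 612 CPM in the other 6 libraries of the cross. The part of either in these values was not tested.

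**Figure D3:**
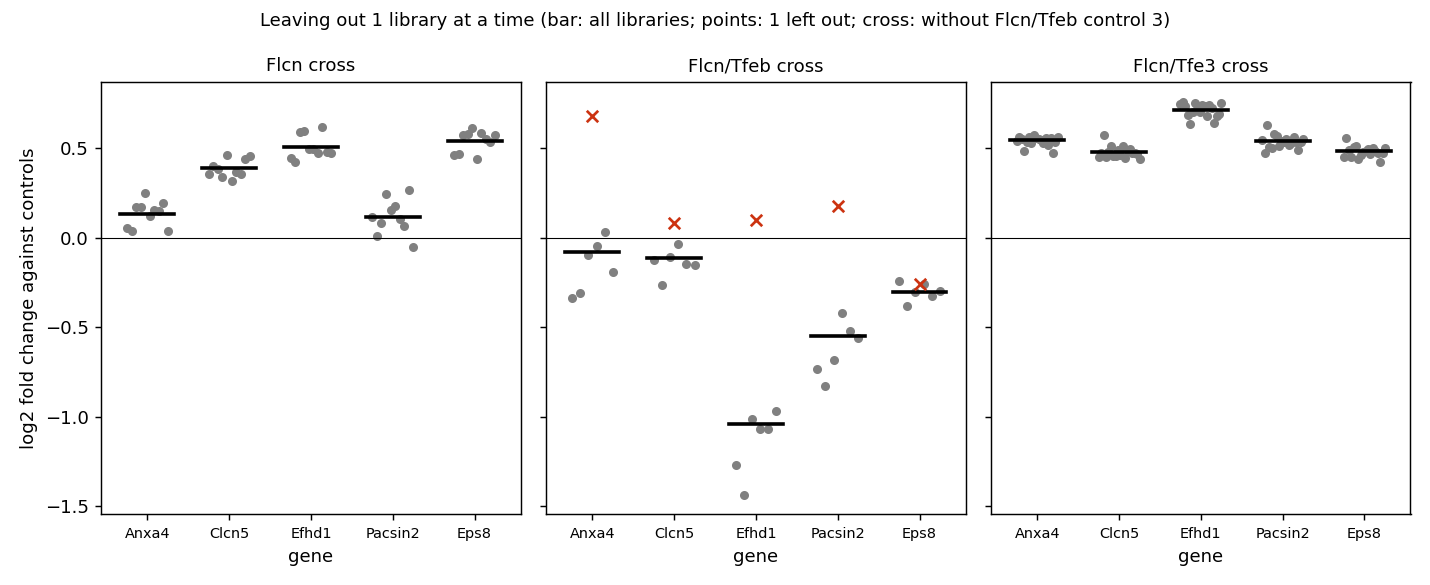
Log2 fold change of each gene in the 3 crosses with all libraries (black bars) and with 1 library left out at a time (points). In the Flcn/Tfeb cross the red crosses, which leave out control replicate 3, lie above 0 for Anxa4, Clcn5, Efhd1 and Pacsin2 and at -0.26 for Eps8.

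The effect of the Flcn KO was then compared with that of the Flcn/Tfeb DKO in 1 fit of the 17 libraries of set A, each effect being taken against its own controls. Of 13049 genes, 2 were called (0.0153%), and none of the 5 was. At an unadjusted p under 0.05 there were 776 genes (5.95%), among them Clcn5, Efhd1 and Eps8. The difference for Eps8 was 0.84 ± 0.23 on the log2 scale (edgeR p 0.0013, adjusted p 0.60), and it was 0.73 to 0.93 with any 1 library left out. The difference for Efhd1 was 1.58 ± 0.50 (edgeR p 0.0046, adjusted p 0.65) but 0.40 without Flcn/Tfeb control replicate 3. The difference for Clcn5 was 0.50 ± 0.23 (edgeR p 0.037, adjusted p 0.82) and 0.30 without that library. For Anxa4 (0.24, interval -0.58 to 1.06) and Pacsin2 (0.68, interval -0.26 to 1.62) the difference was within its error, and without that library it was -0.55 and -0.07.

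The order of the groups by mean level was not the same for the 5 genes, and levels set side by side between sets A, B and C are a description, because a set and its crosses cannot be told apart. With all libraries the Flcn/Tfeb DKO was lowest or next to lowest in all 5 genes. Its mean was 21.6 ± 4.2 CPM (SD, n = 4) for Anxa4, 99.6 ± 11.4 for Clcn5, 10.7 ± 1.0 for Efhd1, 18.3 ± 4.3 for Pacsin2 and 43.7 ± 2.5 for Eps8. The place of this DKO beside its controls rests in part on control replicate 3. Without that library the log2 fold changes of Anxa4, Clcn5, Efhd1 and Pacsin2 were above 0, and the order was not drawn up again. The highest mean was in the Flcn/Tfe3 DKO for Anxa4 (48.0 ± 5.8 in set B, n = 6), Efhd1 (49.3 ± 10.2), Pacsin2 (50.02 ± 5.55) and Eps8 (89.0 ± 12.4, set C, n = 4). For Clcn5 it was in the Flcn KO (198 ± 33, n = 5), and the Flcn controls (152 ± 20) were above the Flcn/Tfe3 DKO (148 in both sets). Most neighbours in these orders overlapped. The exceptions were Anxa4 between the Flcn/Tfe3 controls of set B and the DKO of set C, Efhd1 between the Flcn/Tfeb DKO and the Flcn controls and between the Flcn/Tfe3 controls and DKO of set B, and Pacsin2 between the Flcn/Tfe3 DKO of set B and that of set C.

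Other genes of the same roles were counted in 6 lists. Of 106 genes in lists compiled by hand, 93 were tested with Flcn KO, 95 with Flcn/Tfeb DKO and 95 with Flcn/Tfe3 DKO, and 0 were called by edgeR in any of them, with 12, 15 and 9 genes at an unadjusted p under 0.05. Over all tested genes 0.52, 0 and 0.385% were called and 9.07, 5.07 and 7.15% had such a p, beside 12.9, 15.79 and 9.47% of the lists' genes. The Flcn/Tfeb share rests on control replicate 3, without which 4 of 94 list genes (4.26%) and 5.3% of all tested genes had such a p. Without that library the list medians of this cross were 0.03 for annexins, 0.09 for CLC genes, -0.06 for uptake, 0.15 for mitochondrial calcium, 0.13 for membrane curvature and -0.21 for Eps8 partners, beside the medians over all its libraries given next. Among the annexins and their S100 partners the median log2 fold change was 0.06 with Flcn KO, 0.07 with Flcn/Tfeb DKO and -0.10 with Flcn/Tfe3 DKO, and 3 of 10 tested genes were above 0 in the last. Anxa2, the annexin that pairs with S100a10, had -0.05, Anxa5, which binds phosphatidylserine, 0.21, and Anxa3 -0.45 in the Flcn/Tfe3 cross, beside 0.54 for Anxa4. Over all tested genes the 3 medians were -0.0074, -0.02 and 0.0090.

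Among the other CLC channels and exchangers the medians in the same order were 0.12, -0.18 and 0.11. Clcn3 and Clcn4, the endosomal exchangers closest to Clcn5, had -0.04 and 0.10 in the Flcn cross and 0.11 and -0.10 in the Flcn/Tfe3 cross. Bsnd, which encodes barttin, had 0.59 in the Flcn cross (edgeR p 0.0182, adjusted p 0.42) and 0.48 in the Flcn/Tfe3 cross. The 22 genes of receptor-mediated uptake, the pathway in which ClC-5 works, had medians of -0.07, -0.18 and 0.05 in the same order of crosses.

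Efhd2, the paralogue of Efhd1, had log2 fold changes of 0.02, -0.53 (0.07 without Flcn/Tfeb control replicate 3) and 0.15 in that order, and the other genes of mitochondrial calcium and EF-hand proteins had medians of 0.02, -0.12 and 0.05. Pacsin3 had -0.09, 0.32 (0.12 without that library) and 0.23, and the genes of membrane curvature and dynamin had medians of -0.12, -0.05 and 0.10. The partners of Eps8 and the genes of microvillus actin had medians of -0.21, -0.55 and 0.04. The 3 Flcn/Tfeb controls were spread widely in these genes, with Ezr at 217 to 559 CPM and Vil1 at 15.2 to 37.7 CPM. In the Flcn cross 3 of 19 of these genes were above 0, where Eps8 was at 0.54, and Vil1, which encodes the microvillus protein villin, was at -0.62 (edgeR p 0.0052, adjusted p 0.27). Eps8l1, a paralogue of Eps8, was at 0.57 (edgeR p 0.0075, adjusted p 0.32), 0.43 and 0.02 in the 3 crosses, and Eps8l2 was at 0.04, -0.27 and 0.14. Without Flcn/Tfeb control replicate 3 both paralogues were at 0.21 in that cross.

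**Figure D4:**
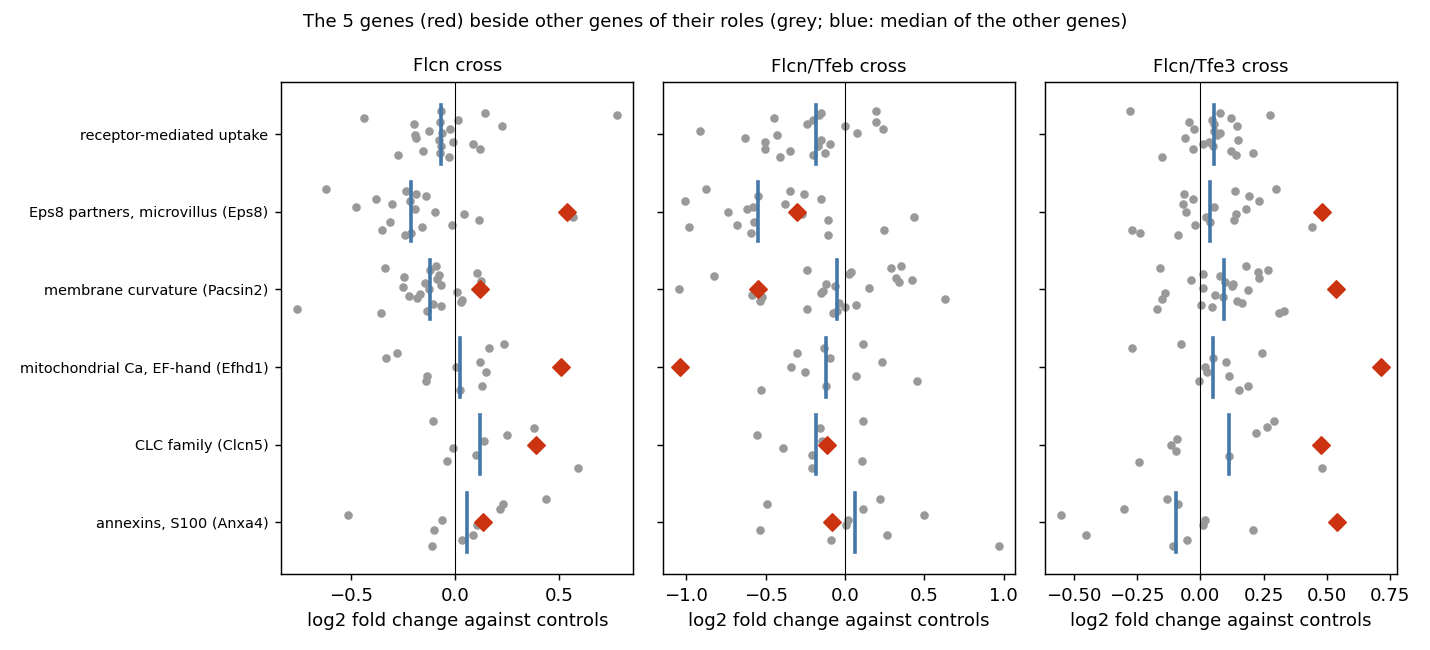
Log2 fold change of the 5 genes (red) and of the tested genes of their role lists (grey, with the median in blue) in the 3 crosses. In the Flcn cross Eps8, at 0.54, lies far from the median of -0.21 of its list, and in the Flcn/Tfe3 cross each of the 5 genes lies above the median of its list, as the choice of the genes entails.

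The genes most like each member were found by the Pearson correlation, over the 35 libraries, of log2 CPM after subtracting the control mean of each cross and set, among 11733 genes. Depth and mitochondrial share vary over the same libraries, so the values are a description. The libraries include Flcn/Tfeb control replicate 3, and no correlation is given without it. On the log2 scale that library was above its control mean by 1.401 for Efhd1, 0.984 for Anxa4 and 0.961 for Pacsin2. For Clcn5 and Eps8 it was above by 0.326 and 0.067. Its part in the correlations was not tested. Efhd1 was most like Foxi1 (r = 0.87), the transcription factor that specifies intercalated cells and one of the markers of that cell summed here, and Hadha (0.84), which encodes a mitochondrial enzyme of fatty acid oxidation, was also among its closest genes. Clcn5 was most like Esrrg (0.83), Mme (0.82) and Ppargc1a (0.82), of which Esrrg and Ppargc1a encode a nuclear receptor and a coactivator of mitochondrial genes. Eps8 was most like Cldn4 (0.84), a tight junction claudin of the collecting duct, Mme (0.81), a brush border peptidase, and the potassium channel gene Kcnq1 (0.81). Anxa4 was most like Atp6v1d (0.79), a subunit of the proton pump V-ATPase, Gng12 (0.75) and Acot7 (0.74). Pacsin2 was most like Hspa9 (0.85), the mitochondrial chaperone mortalin, Gng12 (0.84) and Nabp2 (0.81). Among the 5 genes themselves r was 0.44 (Pacsin2 and Eps8) to 0.77 (Clcn5 and Eps8), and since the genes were chosen as high in the same 10 Flcn/Tfe3 DKO libraries, these values are no independent sign of likeness.

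The likeness rests on the same libraries, so the changes of these genes are given as values without a test. They ran from -0.30 (Nabp2) to 0.84 (Foxi1) in the Flcn cross, where Cldn4 was at 0.77, Esrrg at 0.58, Hspa9 at -0.047 and Acot7 at -0.18. With Flcn/Tfeb DKO they ran from -1.25 (Nabp2) to 0.015 (Kcnq1), but from -0.32 (Esrrg) to 0.54 (Acot7) without control replicate 3. With Flcn/Tfe3 DKO they ran from 0.17 (Nabp2) to 0.71 (Esrrg), and Ppargc1a was at 0.63. Foxi1 was at 0.84 with Flcn KO, -1.02 with Flcn/Tfeb DKO (0.31 without that control) and 0.69 with Flcn/Tfe3 DKO.

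Markers of kidney cell types were summed in every library. The 9 intercalated cell markers summed to 188 to 261 CPM in the Flcn controls and 444 to 586 CPM in the Flcn KO, at 227 to 263 CPM in the Flcn/Tfeb controls and 305 to 324 CPM in the DKO, and at 197 to 298 CPM in the Flcn/Tfe3 controls and 327 to 494 CPM in the DKO. By edgeR 3 of the 7 tested (Atp6v1g3, Atp6v0d2 and Aqp6) rose in the Flcn cross, 0 of 8 in the Flcn/Tfeb cross, where 0 also had an unadjusted p under 0.05 (2 without control replicate 3), and 2 of 9 (Atp6v0d2 and Aqp6) in the Flcn/Tfe3 cross. The median of this list was 0.84 with Flcn KO, where 5 of 7 were above 0 and Slc26a4 (-0.22) and Atp6v1b1 (-0.02) below. With Flcn/Tfeb DKO it was 0.29 (6 of 8 above 0), or 0.27 (8 of 8) without control replicate 3. With Flcn/Tfe3 DKO it was 0.69 (9 of 9). Of the thick ascending limb markers Umod alone passed the test, with 1.001 in the Flcn cross and 0.71 in the Flcn/Tfe3 cross, while the median of the list was 0.08 with Flcn KO (4 of 6 tested genes above 0), -0.15 with Flcn/Tfeb DKO (2 of 6) and -0.04 with Flcn/Tfe3 DKO (2 of 5). Of the 9 principal cell markers 1 (Scnn1b, 0.58, edgeR adjusted p 0.049) rose in the Flcn cross, where 6 were above 0 and the median was 0.16. Aqp2 was at -0.48 there (edgeR p 0.0026, adjusted p 0.20). Their sum was 574 to 679 CPM in the Flcn controls and 521 to 664 CPM in the Flcn KO. In the other 2 crosses 0 were called. With Flcn/Tfe3 DKO 6 of the 9 had an unadjusted edgeR p under 0.05, and 4 of the 9 were above 0 (median -0.0067). Cdh16, whose promoter drives the Cre, had edgeR adjusted p of 0.93, 0.80 and 0.996 in the 3 crosses, with log2 fold changes of 0.05 and -0.40 in the first 2, and -0.18 in the Flcn/Tfeb cross without control replicate 3. Proximal tubule markers had medians of -0.20, -0.15 and -0.15, and 0 of 9 were called in each cross. No marker of any list was at 0 in all libraries of a group. The part of these cells in the levels of the 5 genes was not tested.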

How the data were processed

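The study sequenced whole-kidney RNA with the QuantSeq 3' kit, trimmed and aligned the reads (STAR, mm10) and assigned them to genes (HTSeq-count). Deposited were the raw counts per gene and library, not normalized, and the strand setting is not given in the sources used here. A deposited percent column (share of multiply mapped reads) was 0 or NA and was not used. Tallies of reads outside genes, in 26 libraries, were left out (33.7 to 49.4% not unique and 7.92 to 19.9% on no feature). Antisense exons of Gm44036 (75 bases, at most 4 counts in a library) and Efhd1os (254 bases, at most 7 counts) overlap Anxa4 and Efhd1.

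Each cross was fitted with edgeR 4.0.16 (R 4.3.3; filterByExpr, TMM, quasi-likelihood F test, two-sided), with the set as a term for the Flcn/Tfe3 cross, and genes were called at a Benjamini-Hochberg adjusted p under 0.05. The fit was also run on simulated data, and no value given here rests on that run. Exact permutation tests used log2 CPM with a prior count of 2. Pairs of libraries of a group (63) differed by more than sampling noise (chi-square per degree of freedom 2.71 to 39.1). Whether they were from separate litters is not given, so p-values measure the spread between these pups. The named genes are the 5 members, the targeted, Cre and sex genes, their closest family genes, called genes of the role lists and the 3 genes most like each member, and others are named after their values were seen. Some genes that this rule names are not reported here. Members and lists were chosen with earlier results of these data known. Counting error alone sets a floor of 3 counts, 0.708 to 1.82 CPM.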

Additional observations from a re-analysis of the deposited data

Results flagged for a closer look

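In 30 groups of 4 to 6 libraries (each gene in each group and set), the library farthest from the others was tested with Dixon's criterion. Under it chance picks out about 1 group in 20. Clcn5 in Flcn/Tfe3 DKO replicate 10 (163 CPM) was far above the other DKO libraries of set C, which were at 141 to 144 CPM. Since the Flcn/Tfe3 cross chose the genes, that flag is a description from which nothing is read. Efhd1 in Flcn KO replicate 3 (18.0 CPM) was far below the other 4 KO libraries, which were at 26.5 to 28.2 CPM.

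In Efhd1 and Eps8 every Flcn KO library was above the mean of its controls and every Flcn/Tfeb DKO library was below the mean of its own, on the log2 scale. The difference of the effects was 1.58 for Efhd1 and 0.84 for Eps8, and neither passed the edgeR test after adjustment (adjusted p 0.65 and 0.60). For Efhd1 the pattern rests on Flcn/Tfeb control replicate 3, without which the difference was 0.40, while for Eps8 it was 0.73 to 0.93 with any 1 library left out. The groups of 3 Flcn/Tfeb controls were too small for the criterion, although control replicate 3 lay far above the others for Anxa4, Efhd1 and Pacsin2.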

How the results depend on the processing

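In the Flcn cross the 62 called genes became 113 with DESeq2, 95 without a filter, 147 with the mitochondrial share as a covariate and 37 to 58 with 1 library left out (37 without Flcn KO replicate 3, 39 without replicate 4 and 40 without replicate 2). Of the 5 genes 1 (Eps8, log2 fold change 0.58) was called with the mitochondrial share and 0 under every other alternative. With 1 library left out Pacsin2 was -0.054 (without Flcn KO replicate 5) to 0.26.

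In the Flcn/Tfeb cross 1 gene was called in a fit of all 17 libraries of set A and 0 to 1 with 1 library left out, and none of the 5 was called under any alternative. With 1 library left out Anxa4 was -0.34 to 0.68, Clcn5 -0.26 to 0.080, Efhd1 -1.44 to 0.096 and Pacsin2 -0.83 to 0.18, where the highest value is that without control replicate 3 in each case. With the mitochondrial share they were 0.98, 0.22, 0.67 and 0.60, and Anxa4 was 0.032 without DKO replicate 3.

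For the difference between those effects the 2 calls became 8 with DESeq2, 5 with the mitochondrial share, 0 with the replicate block and 0 to 3 with 1 library left out. Anxa4 was -0.20 with the mitochondrial share, and with 1 library left out Anxa4 was -0.55 to 0.48 and Pacsin2 -0.068 to 0.96, with the lowest values without Flcn/Tfeb control replicate 3.

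In the Flcn/Tfe3 cross the 48 calls became 96 with DESeq2, 26 with Xist, 28 with the mitochondrial share, 2 with the replicate block, 12 with a block by the numbers in the deposited column names within each set (chosen after seeing the data), 8 in set B alone, 569 in set C alone and 30 to 53 with 1 library left out (30 without DKO replicate 7). The number of the 5 members past the threshold, a description because this cross chose them, went from 5 to 2 with RLE factors, 2 with a minimum mean of 10 counts, 0 with Xist, 0 with the mitochondrial share, 0 with either block, 0 in set B and 0 to 5 with 1 library left out (0 without DKO replicate 4, 8 or 9). The log2 fold changes of the 5 were above 0 in these alternatives, which the choice of the genes largely fixes. The cause of these shifts was not tested.

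By the rule that every pair must correlate above 0.1, replicate numbers were not taken as pairs. The correlation of deviations between libraries of the same number was -0.23 to 0.32 in the Flcn cross, -0.10 to 0.16 in the Flcn/Tfeb cross and -0.35 to 0.27 in the Flcn/Tfe3 cross, where numbers 4 to 6 join controls of set C with DKO libraries of set B, so that block is no pairing there. By the numbers in the deposited column names it was -0.35 to 0.27 in set B (3 pairs) and -0.095 to 0.035 in set C (4 pairs). Depth limits the precision of Efhd1 (11 to 227 counts per library), Pacsin2 (20 to 216) and Anxa4 (22 to 245), and 3 Flcn/Tfeb controls leave wide intervals.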
